A study of Drosophila melanogaster with 2 samples.

Results

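The genes described here encode RNA polymerase II, the Mediator complex, the TBP-associated factors (TAFs) of TFIID and the TFII general factors of Drosophila melanogaster. They were chosen by symbol alone: every protein-coding gene of the Ensembl dm6 annotation whose symbol begins with Polr2, RpII, MED and a digit, Taf and a digit, or TfII. The rule found 62 genes among the 13968 protein-coding genes on the chromosome arms, made up of 13 RNA polymerase II genes, 25 Mediator genes, 15 TAF genes and 9 TFII genes. The study mapped where the Hox transcription factor Sex combs reduced (Scr) lies on the genome of whole Drosophila embryos aged 0 to 24 hours. The line, labelled Scr-GFP, is transgenic and expresses Scr fused to enhanced green fluorescent protein (Scr-eGFP), and chromatin sheared by sonication was precipitated with an anti-GFP antibody, although the antibody field of the labels names Scr. There was 1 group with 2 biological replicates, no sex was recorded, and no control or untagged library was analysed here. Nothing is therefore compared between conditions, the values below are descriptions with no test, and in whole embryos a stronger peak from more bound cells cannot be told apart from one with more protein per cell.

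RNA polymerase II transcribes the protein-coding genes of the nucleus, and it is brought to a promoter by the general factors. TFIID, built from the TATA-binding protein and the TAFs, recognises the core promoter, and Mediator carries signals from DNA-bound activators to the polymerase. Genes for such machinery are active in nearly every cell and their promoters often lack a TATA box, whereas Hox proteins such as Scr are known for patterning particular body segments. In Drosophila, promoters of this housekeeping kind often carry the DNA replication-related element, TATCGATA, bound by the factor DREF, or the element GGTCACAC, bound by the factor M1BP.

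A summit is the position of highest signal within a peak, and the signal is the authors' own value for each peak, used here to describe and rank peaks within one list. A gene was counted as having a summit when one lay within 500 bp of any of its own annotated transcription start sites. The main list is the one the authors made from both replicates with a threshold on the irreproducible discovery rate (IDR), and each replicate also has a list of its own. Sequences from the RefSeq release 6 genome (dm6) show the letters under the strongest summits. Each is the exon-free stretch of the window from 50 bp before to 50 bp after the summit, read on the gene's strand, so it may be shorter than that window, and capitals mark TATCGATA or GGTCACAC. The first 4 are promoters with a TATCGATA near the summit, the next 4 are the strongest summit of each complex, and the last is the stretch between the divergent starts of the paralogues Taf10 and Taf10b, on the strand of Taf10.
MED28, chr3R:25476916-25477002, plus strand: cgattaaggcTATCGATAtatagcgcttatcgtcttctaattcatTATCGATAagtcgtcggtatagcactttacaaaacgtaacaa
MED26, chr4:787615-787666, minus strand: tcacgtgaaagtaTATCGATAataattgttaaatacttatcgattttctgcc
Polr2D, chr3R:18255488-18255529, minus strand: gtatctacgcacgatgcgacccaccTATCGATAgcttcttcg
Polr2L, chr3R:24717445-24717510, plus strand: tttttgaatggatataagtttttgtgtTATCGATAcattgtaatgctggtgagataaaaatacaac
MED7, chr3R:10761074-10761147, minus strand: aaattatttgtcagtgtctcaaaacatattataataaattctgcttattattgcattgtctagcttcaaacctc
Polr2J, chr2L:17410505-17410605, minus strand: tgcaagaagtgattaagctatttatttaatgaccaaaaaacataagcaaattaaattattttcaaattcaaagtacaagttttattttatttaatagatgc
Taf7, chr3R:7907498-7907556, plus strand: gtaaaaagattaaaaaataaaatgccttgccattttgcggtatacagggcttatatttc
TfIIFalpha, chr3R:6380329-6380405, plus strand: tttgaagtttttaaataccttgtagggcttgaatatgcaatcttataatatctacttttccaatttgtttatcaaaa
Taf10, chr2L:2767846-2767887, plus strand: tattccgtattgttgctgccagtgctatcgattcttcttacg
The MED28 stretch held 2 copies of TATCGATA, centred 9.5 and 25.5 bp from the summit. MED26, Polr2D and Polr2L held 1 copy each, centred 33.5, 11.5 and 19.5 bp from their summits. The 4 strongest members, MED7, MED27, Taf7 and Polr2J, held neither element in the letters within 50 bp of their summits.

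A main-list summit lay at the start of 39 of the 62 members (62.9%), against 36.2% of all protein-coding genes (5062 of 13968). By complex, the shares ran as follows. The RNA polymerase II group had a summit at 11 of 13 genes (84.6%) and TAFs at 12 of 15 (80.0%). Mediator had one at 13 of 25 genes (52.0%), and the TFII factors at 3 of 9 (33.3%), which is close to the share over all genes. The replicates' own lists held 31 of the 62 members in replicate 1, where 30.8% of all genes were called. In replicate 2 they held 32 of the 62, where 30.4% of all genes were called. Both replicates' lists held 26 of the 62 members, against 26.4% of all genes (3694 of 13968). The median signal over the 39 members was 234 (range 60.9 to 1999), against 233 over the 5062 genes with a summit. In the authors' conservative list, which adds weaker members, it was 149, against 235 over all genes with a summit there. Of the 39, 6 (15.4%) lay among the strongest 25% of those genes and 8 (20.5%) among the weakest 25%.

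**Figure D1:**
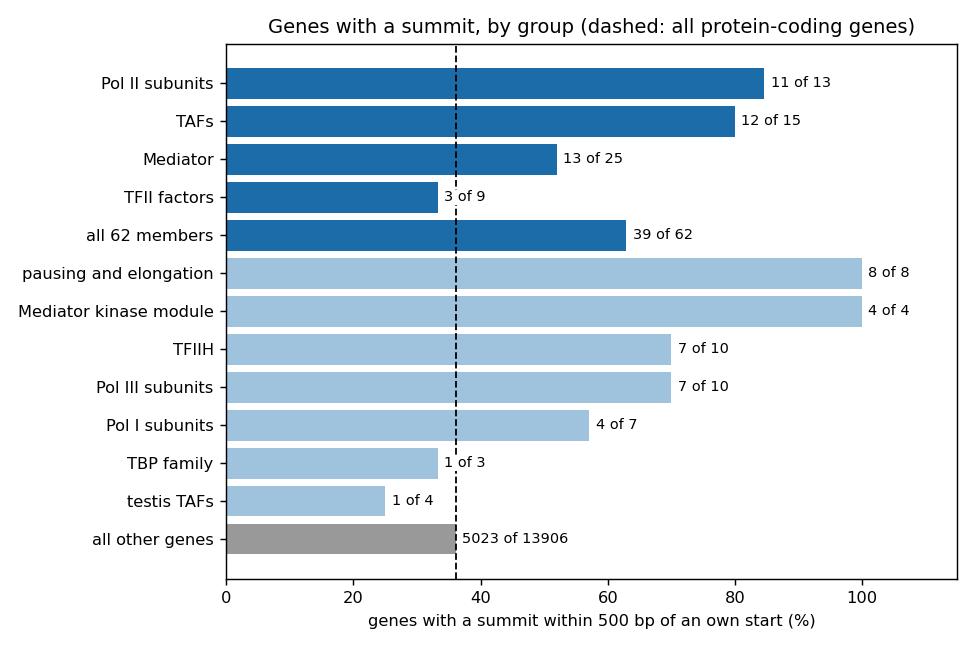
Share of genes (percent) with a main-list summit within 500 bp of an own start, for the 62 members and their complexes (dark blue), groups of other transcription machinery genes (light blue) and all other protein-coding genes (grey), with the count beside each bar. RNA polymerase II (84.6%) and TAF genes (80.0%) lie far to the right of the dashed line at the share over all genes (36.2%), and the TFII factors (33.3%) lie just to its left.

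The 39 members with a summit ran from MED7, the 21st strongest of the 5720 main-list peaks on the arms, down to Taf2 at a signal of 60.9. By complex, the median signal was 369 for TAFs, 197 for TFII factors, 149 for Mediator and 129 for RNA polymerase II. The order of the complexes depended on the list. TAFs had the larger share called in the conservative list (86.7%, against 84.6% for RNA polymerase II), in the list of replicate 1 (66.7%, against 61.5%) and in that of replicate 2 (73.3%, against 53.8%). The order of the medians also changed between lists, and in replicate 2 it was 211 for TFII factors, 201 for RNA polymerase II, 188 for TAFs and 81.5 for Mediator.

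**Figure D2:**
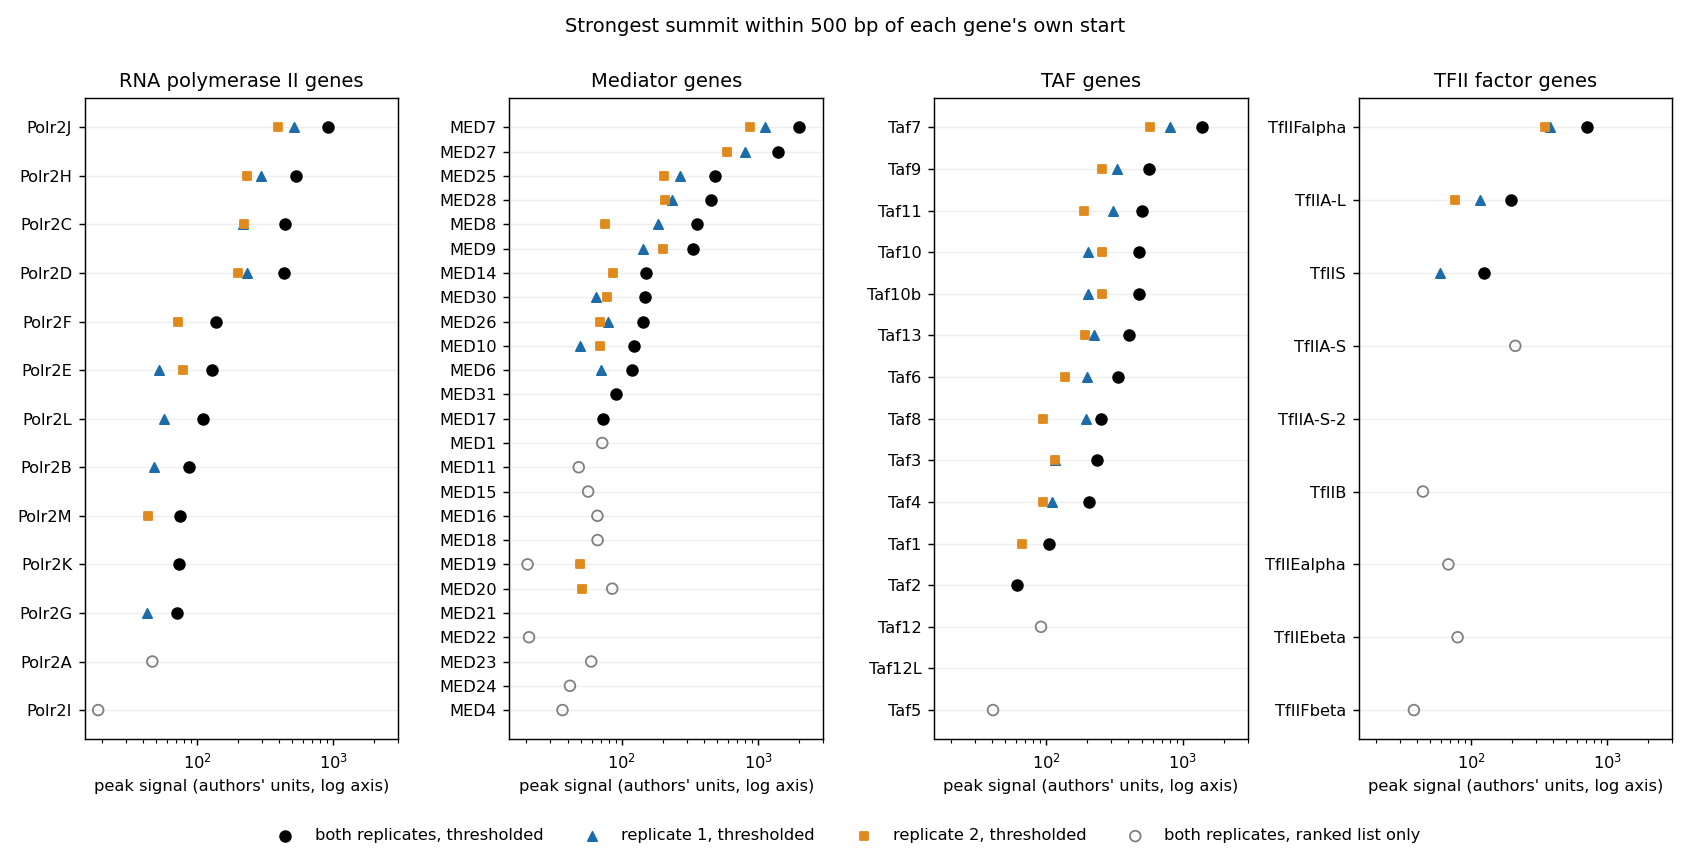
Peak signal (authors' units, log axis) of the strongest summit at each of the 62 members, by complex, in the thresholded list over both replicates (black circles), in each replicate's own thresholded list (triangles and squares) and, where the main list has none, in the main ranked list (open circles). Called Mediator genes span 73.2 (MED17) to 1999 (MED7), and MED21, Taf12L and TfIIA-S-2 have no point.

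Among the RNA polymerase II genes the strongest was Polr2J (FBgn0032634), whose product pairs with that of Polr2C in the assembly of the enzyme. Its signal was 908 in the main list, with 514 in replicate 1 and 391 in replicate 2, and it ranked 339 of 5720. Polr2C itself had 439 in the main list, with 218 in replicate 1 and 220 in replicate 2, so both replicates gave nearly the same value there. Polr2D and Polr2G encode the 2 subunits of the stalk that projects from the enzyme. Polr2D had a signal of 435 in the main list, with 233 in replicate 1 and 201 in replicate 2. Polr2G was among the weakest, with 71.4 in the main list, 42.7 in replicate 1 and no peak in the list of replicate 2. One gene of the stalk was thus well above the median of the complex's genes with a main-list summit, and the other was the weakest of them. Polr2B, the second-largest subunit and part of the catalytic centre, had 87.0 in the main list and 48.0 in replicate 1, and was absent from the list of replicate 2. Polr2A, the largest subunit, with the heptad-repeat tail, had no main-list summit.

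The 5 subunits that polymerase II shares with polymerases I and III (Polr2E, Polr2F, Polr2H, Polr2K and Polr2L) all had a main-list summit. Polr2H was the strongest of them, at 532 in the main list, with 295 in replicate 1 and 231 in replicate 2. Polr2E had 129 in the main list, with 52.5 in replicate 1 and 79.0 in replicate 2. Polr2F (137 in the main list) was found in the list of replicate 2 at 73.0 but not in that of replicate 1. Polr2L (111 in the main list) was found in that of replicate 1 at 56.7 but not in that of replicate 2. Polr2K, at 73.6 in the main list and 277 bp downstream of its start, was in neither replicate's own list. Outside the shared subunits, Polr2M had 74.3 in the main list and 43.7 in replicate 2, and no peak in the list of replicate 1.

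Mediator was split almost evenly between genes with and without a summit. The head module had summits at 3 of 7 genes, the middle module at 5 of 9, the tail and bridging subunits at 4 of 8, and the scaffold gene MED14 also had one, where the share over all genes was 36.2%. The share of the head module (42.9%) was near that background, and all 3 of its summits lay nearer to another gene's start. MED7, which encodes a subunit of the middle module, carried the strongest summit of all 62 members, at 1999 in the main list, with 1126 in replicate 1 and 866 in replicate 2. MED27 followed at 1388 in the main list, with 795 in replicate 1 and 591 in replicate 2, ranking 93. Both summits also lay within 500 bp of another gene's start, that of Cap-H2, a condensin subunit gene, for MED7, and that of elm for MED27. MED25 had 484 in the main list, with 270 in replicate 1 and 206 in replicate 2, and MED28 had 449, 233 and 207 in the same lists. All 4 genes were called in each replicate.

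The fifth-strongest Mediator summit, assigned to MED8 of the head module, lay far from its start. It had a signal of 354 in the main list and was placed 481 bp upstream of the MED8 start, nearer to that of CG8929. In the replicates' lists the strongest peaks assigned to MED8 had summits 406 bp apart, with 184 in replicate 1 and 74.7 in replicate 2, so they are separate positions. MED9, a middle-module gene, had 335 in the main list, with 143 in replicate 1 and 200 in replicate 2. MED30, MED26 and MED10 were weaker and were also called in both replicates. MED30 had 148 in the main list, with 65.2 in replicate 1 and 77.5 in replicate 2. MED26 had 142, with 79.8 in replicate 1 and 69.8 in replicate 2, and MED10 had 124, with 49.3 and 69.6. MED14, whose product is the backbone that joins the modules, had 149 in the main list and 85.5 in replicate 2, with no peak in the list of replicate 1. Its summit lay 5 bp downstream of its start, with no other gene's start within 500 bp. MED6 was in the list of replicate 1 (70.9) but not that of replicate 2, with 118 in the main list. MED31 (90.0) and MED17 (73.2) were in the main list but in neither replicate's own list.

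Of the 15 TAF genes, 12 had a main-list summit. Taf7 was the strongest, at 1380 in the main list, with 807 in replicate 1 and 577 in replicate 2, ranking 95. Several TAFs pair through histone folds inside TFIID, and the pairs can be read together. Taf9 had 569 in the main list, with 327 in replicate 1 and 255 in replicate 2, and its partner Taf6 had 335, 198 and 136 in the same lists. Taf11 had 502 in the main list, with 308 in replicate 1 and 188 in replicate 2, and its partner Taf13 had 404, 224 and 191. Both genes of each of these pairs were called in both replicates. In the Taf4 and Taf12 pair, Taf4 had 206 in the main list, with 111 in replicate 1 and 94.4 in replicate 2, whereas Taf12 had no main-list summit.

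The paralogues Taf10 and Taf10b start close together on opposite strands and shared a single summit, so that the 39 members rest on 38 distinct summits. That summit had 476 in the main list, with 203 in replicate 1 and 257 in replicate 2, and lay 53 bp upstream of the Taf10 start and 8 bp downstream of the Taf10b start. Taf3 and Taf8, whose products can pair with Taf10, were weaker. Taf3 had 234 in the main list, with 116 in each replicate. Taf8 had 252 in the main list, with 196 in replicate 1 and 93.9 in replicate 2. Taf1, the largest TAF and a scaffold of TFIID, had 104 in the main list and 66.2 in replicate 2, with no peak in the list of replicate 1. Taf2, which contacts DNA around the start site, had 60.9 in the main list and no peak in either replicate's own list.

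Of the TFII factors, 3 had a summit. TfIIFalpha, a subunit of the factor that escorts the polymerase to the promoter, had 713 in the main list, with 377 in replicate 1 and 346 in replicate 2. TfIIA-L, which encodes the large subunits of TFIIA, had 197 in the main list, with 116 in replicate 1 and 75.9 in replicate 2. TfIIS, an elongation factor that helps a stalled polymerase to resume, had 125 in the main list and 58.9 in replicate 1, with no peak in the list of replicate 2. TfIIA-S, the partner of TfIIA-L, and TfIIFbeta, the partner of TfIIFalpha, had no main-list summit. Neither gene of the pair TfIIEalpha and TfIIEbeta had one, nor did TfIIB and TfIIA-S-2.

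Most members without a summit still had an entry in the ranked lists. These hold weaker entries as well, and the thresholded lists keep only entries with a score of at least 830, which stands for an IDR of 0.01. Of the 23 members without a main-list summit, 20 had an entry of the main ranked list within 500 bp of a start, against a background of 51.8% of the 8906 genes without a summit. The exceptions were MED21, Taf12L, a testis paralogue of Taf12, and TfIIA-S-2, a paralogue of TfIIA-S. With these entries counted, 59 of the 62 members had an entry, where 69.2% of all genes had one. In the ranked lists of the replicates, 60 of the 62 members had an entry in replicate 1, against 68.4% of all genes. In replicate 2, 59 of the 62 had one, against 68.6%.

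The weaker entries ranged widely. Among RNA polymerase II genes, Polr2A had an entry of signal 46.9 and score 406, and Polr2I, which starts beside the insulator gene su(Hw), had one of signal 18.8 and score 94. Taf12 had a signal of 91.2 with a score of 620, and Taf5 one of 40.6 with a score of 126. Among the TFII factors, TfIIEbeta had a signal of 79.6 (score 617), TfIIEalpha 68.2 (score 148), TfIIB 44.4 (score 349) and TfIIFbeta 38.1 (score 364). In the head of Mediator, MED20 had 85.1 (score 685), MED18 66.5 (score 457), MED11 48.4 (score 593) and MED22 20.9 (score 68). In its middle module, MED1 had 71.9 (score 799), MED4 36.7 (score 658) and MED19 20.4 (score 68). In its tail, MED16 had 66.3 (score 351), MED23 59.7 (score 87), MED15 56.7 (score 216) and MED24 41.7 (score 193). All of these signals lay below the median of the 39 called members (234), and most lay below the weakest of them (60.9).

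TfIIA-S stood apart from these weaker entries. Its entry, at chr3R:23891034-23891266 with a summit 64 bp upstream of the start, had a signal of 211 and a score of 1000 in the main ranked list. Each replicate's ranked list also gave it a score of 1000, with a signal of 116 in replicate 1 and 100 in replicate 2. It is nevertheless in none of the 4 thresholded lists. Of the 5880 entries of the main ranked list with a score of at least 830, 160 are not in the thresholded list, and TfIIA-S was the only member among them. In the ranked list of replicate 1, MED15 was a further such entry, with a signal of 37.2 and a score of 897.

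The authors' conservative list gave 45 of the 62 members (72.6%), where 36.0% of all genes were called. It added MED18, MED20, MED23, MED4, Taf12, TfIIEalpha and TfIIEbeta to the main-list members and left out TfIIS. With it, 17 of 25 Mediator genes, 13 of 15 TAF genes, 11 of 13 RNA polymerase II genes and 4 of 9 TFII genes had a summit. Over all genes the 2 lists called nearly the same number (5062 in the main list and 5028 in the conservative list). They differed at 8 of the 62 members, and the number of all genes at which they differed was not counted.

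Other peaks lay near members without a main-list summit. MED19 and MED20 had no main-list summit but a peak in the list of replicate 2, at 49.2 and 51.0, which was so for 3.26% of all genes without a main-list summit. For 5 of the members without one, a main-list summit lay beyond 500 bp but within 2000 bp of a start. The share over all genes was not counted. Most of these summits lay within 500 bp of another gene's start, named here in brackets after the signal. The nearest lay 546 bp upstream of the MED19 start (347, CG7430) and 944 bp upstream of that of MED1 (77.5, ORMDL). Others lay 1215 bp downstream of the MED4 start (520, Cdc27) and 1922 bp downstream of that of TfIIEalpha (368, Sugb). The summit 1909 bp upstream of MED11 (88.6) had no such start. Of the summits inside the window, the farthest from a start were those of MED8 at 481 bp, Polr2K at 277 bp and MED17 at 270 bp.

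The summits sat close to the starts and mostly before them. The median distance was 59 bp for the members, against 78 bp for all genes with a summit, and 26 of the 39 (66.7%) lay within 100 bp, against 59.5%. The summit was upstream of the start at 32 members (82.1%), against 81.1% of all genes with a summit. Another gene's start lay within 500 bp of the summit at 26 members (66.7%), against 55.8% of all genes with a summit. For 16 of the 39 members the nearest start was that of another gene, against 1377 of the 5062 genes with a summit. Among the 16 were MED27, Polr2J and TfIIFalpha, while for MED7 and Taf7 the nearest start was their own. The summits beside another gene's start had a median signal of 419 in the members, and the other 13 had 137, while over all genes these medians were 305 and 164. Shared summits also lay farther upstream, at a median of 89 bp before the member's start, where the others lay 16 bp before it. Over all genes with a summit the same medians were 93 and 35 bp before the start.

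**Figure D3:**
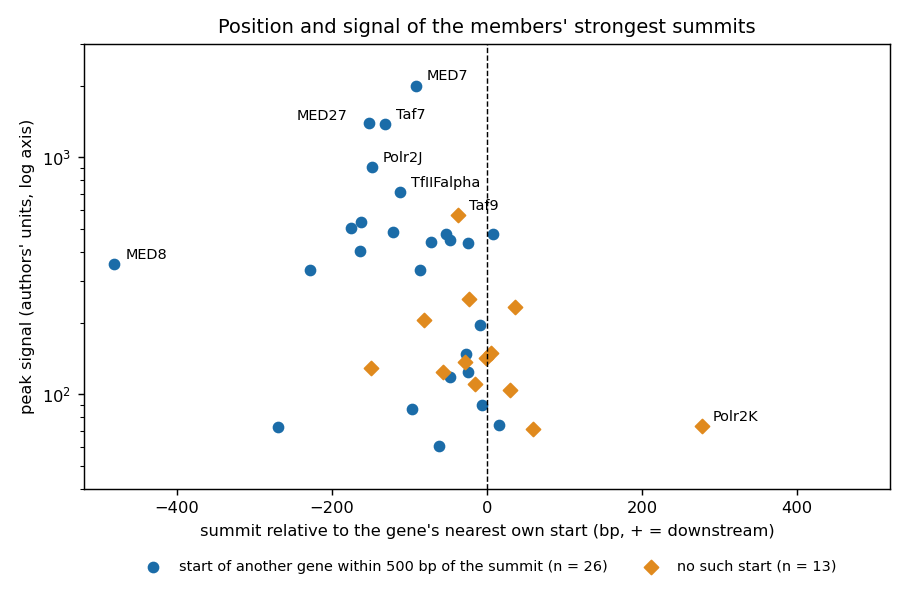
Signal of the strongest summit (authors' units, log axis) against its position relative to the member's nearest own start (bp), for the 39 members, split by whether another gene starts within 500 bp of the summit. The strongest summits, MED7, MED27, Taf7, Polr2J and TfIIFalpha, lie 92 to 152 bp upstream and beside another gene's start, and Taf9 (569) is the strongest without one.

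The partner genes at these shared starts are of varied function. Taf7 shares its start region with EMC1, Taf11 with und, Taf13 with nesd and Taf6 with ash1, a trithorax-group histone methyltransferase gene. Polr2J shares it with CG15141, Polr2H with CG11247, and Polr2C with GatC and PolG2. Polr2D shares it with Ada2a, Tgs1 and moi. MED25 shares it with Hs6st, MED28 with CG4553, MED9 with CG42518 and Nup75, TfIIFalpha with CG1024, and TfIIA-L with pll, the kinase of the Toll pathway. At these members the files cannot assign the summit to either gene.

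The replicates' signals rose together at the members, with lower correlations and a wider spread of ratios than over all genes. Over the 26 members in both replicates' lists, the log2 signals correlated across genes with Pearson's r of 0.92 and Spearman's rho of 0.88, against 0.95 and 0.96 over the 3694 genes in both lists. These genes share both libraries and are not independent replicates. The log2 ratio of replicate 1 to replicate 2 had a median of 0.23 and an SD of 0.46 in the members, against 0.16 and 0.37 over all genes. Replicate 1 had the higher signal at 19 of the 26 members (73.1%), against 67.7% of all genes in both lists. A difference over 2-fold occurred at 2 of the 26 members (7.69%), against 1.11% of all genes in both lists. They were MED8 (log2 ratio 1.30), whose replicate summits were 406 bp apart, and Taf8 (1.06). The summits of the 2 replicates lay a median of 21.5 bp apart at the members and 15 bp apart over all genes.

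**Figure D4:**
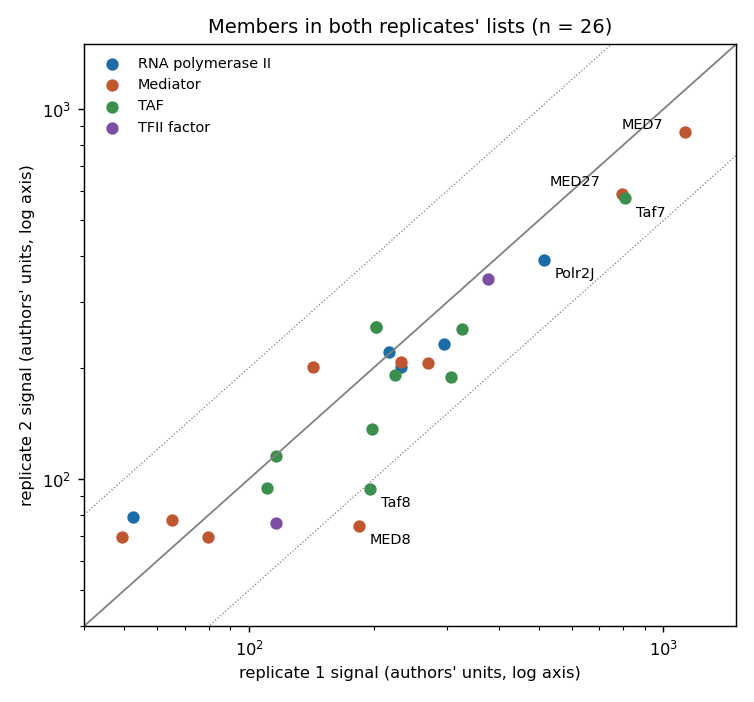
Signal in the list of replicate 2 against that of replicate 1 (authors' units, log axes) for the 26 members in both lists, with a line of equality and dotted lines at a 2-fold difference. MED8 and Taf8 lie at or beyond the lower dotted line, and 19 of the 26 lie below the line of equality.

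Of the 39 members with a summit, 26 (66.7%) were in both replicates' lists, against 72.5% of all genes with a summit. A single replicate's list held 9 (23.1%), against 17.9%, and 4 (10.3%; MED31, MED17, Polr2K and Taf2) were in neither, against 9.62%. These shares lay near those over all genes. RNA polymerase II genes were called in both at 5 of 11, Mediator genes at 9 of 13, TAF genes at 10 of 12 and TFII factors at 2 of 3, beside the 72.5% over all genes. The 13 members not in both lists had main-list signals from 60.9 to 149, all below the members' median.

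Letters near the summits were compared with all promoter summits of the main list. Both strands were searched for the exact letters of each motif up to 50 bp from the summit. TATCGATA was found at 6 of the 38 distinct member summits (15.8%), namely those of MED26, MED28, MED8, MED9, Polr2D and Polr2L, against 14.7% of 4582 promoter summits. GGTCACAC was found at 5 (13.2%), those of MED10, Polr2D, Polr2G, Polr2L and Taf1, against 4.52%. Polr2D and Polr2L held both elements. TATAAA, the TATA box, was found at 4 (10.5%), against 12.6%, and the E-box CAGCTG at 2 (5.26%), against 8.60%. TGACAG, bound by the Hox cofactor Homothorax, was found at 1 (2.63%), against 4.04%. Of the letters known for Hox proteins, the core TAATTA was found at 2 (5.26%), against 6.42%, and TGATTNAT, a form bound with the cofactor Extradenticle, at 0, against 1.88%. GAGAGAG, bound by GAGA factor, was also found at 0, against 2.58%. No motif's letters contain those of another, and a match is a description of letters and not a site.

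GGTCACAC was more frequent at the starts of members without a main-list summit. In the window from 250 bases before to 50 bases after the first start, it occurred in 25.8% of the 62 members, against 7.70% of all genes. It was present in 7 of the 39 members with a main-list summit (17.9%) and 9 of the 23 without one (39.1%), against 13.6% and 4.36% over all genes. TATCGATA went the other way: it occurred in 9 of the 39 members with a summit (23.1%) and 1 of the 23 without (4.35%, MED18), against 22.7% and 1.81% over all genes. The 9 members without a summit and with GGTCACAC were MED11, MED15, MED19, MED20, MED22, MED23, MED24, Polr2I and Taf5. The split rests on the main list: MED20 and MED23, and also MED18, had a summit in the conservative list. MED19 and MED20 had a peak in the list of replicate 2. GGTCACAC read in the direction of the gene in all 9, with its centre between 6 bp before and 21 bp after the start. The letters around it are given for 7 of them, with GGTCACAC in capitals, on the gene's strand of the same RefSeq genome.
MED11, chr3L:18745837-18745864, plus strand: ctcgtgttctGGTCACACtgttatctgg
MED15, chr2L:473009-473036, plus strand: tgcctgaaacGGTCACACtgtgctcaga
MED19, chr3L:17846476-17846503, minus strand: gtcgcaatgcGGTCACACtggttcgcgg
MED20, chr2L:8072824-8072851, minus strand: agtcagcactGGTCACACtggacgcttt
MED22, chrX:928122-928149, plus strand: gaaaatacgtGGTCACACtgtacatata
MED24, chr3L:8191277-8191304, plus strand: aagatacctcGGTCACACtgagcgctgc
Polr2I, chr3R:14309080-14309107, plus strand: gccttgccacGGTCACACtttcgccaat
The main ranked entries at these 7 genes are the low ones described above, from 18.8 at Polr2I to 85.1 at MED20.

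**Figure D5:**
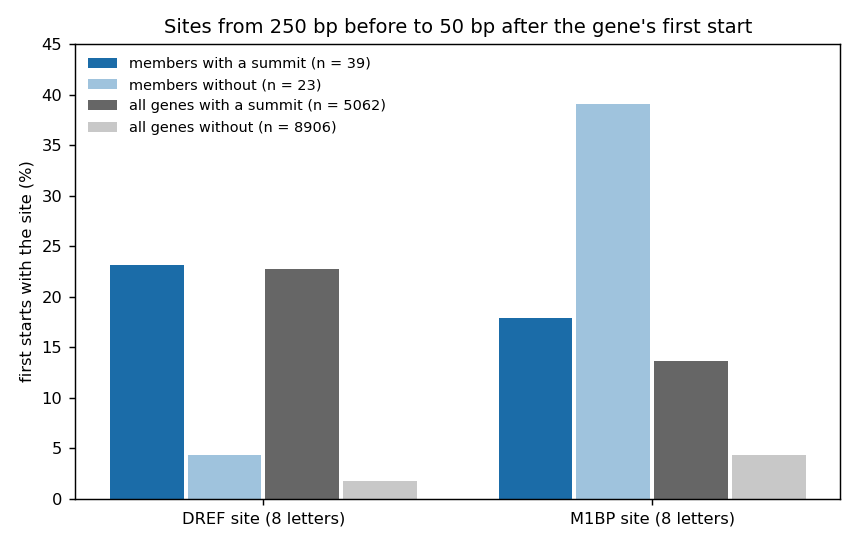
Share (percent) of first starts that hold TATCGATA (DREF site) or GGTCACAC (M1BP site) between 250 bases before and 50 bases after, for members with and without a main-list summit and for all protein-coding genes with and without one. For GGTCACAC the members without a summit stand highest (39.1%), and for TATCGATA both groups without a summit stand low (4.35% and 1.81%).

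Other genes of the transcription machinery, listed by function and not matched by the symbol rule, gave a share near that of the members. Of the 62 members, 39 (62.9%) had a main-list summit, against 32 of these 46 genes (69.6%) and 36.2% of all protein-coding genes. The median signal of the 32 was 268. All 8 pausing and elongation genes had one, CycT being the strongest at 627, with 325 in replicate 1 and 295 in replicate 2. The kinase module, which binds Mediator reversibly, had a summit at all 4 of its genes, with kto at 659, skd at 344, CycC at 95.3 and Cdk8 at 91.8. TFIIH, which opens the promoter DNA, had 7 of 10, led by mrn at 1050 and Tfb1 at 817, while Ssl1, CycH and Mat1 had none. Ssl1 was nevertheless in both replicates' own lists, at 60.8 in replicate 1 and 52.2 in replicate 2.

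Tbp, which encodes the TATA-binding protein at the centre of TFIID, had 323 in the main list, with 176 in replicate 1 and 146 in replicate 2. Its relatives Trf and Trf2 had no main-list summit, and Trf starts beside MED20, so that the weaker entry at 85.1 was the same for both. Polymerase I subunits had a summit at 4 of 7 genes, with Polr1D at 1084 and none at Polr1C, Polr1F and Polr1H. Polymerase III subunits had one at 7 of 10, with none at Polr3E, Polr3G and Polr3K, where the share over all genes was 36.2%. Of the testis TAF genes outside the symbol rule, mia had 282, and can, nht and sa had no summit, as was also so for the member Taf12L.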

How the data were processed

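Chromatin immunoprecipitation sequencing was done on whole embryos of the strain labelled Scr-GFP, which carries an Scr-eGFP fusion, in 2 biological replicates, per the labels. The files are peak lists on dm6, made per replicate and from both replicates together, each with a control alignment, per the submitters' file notes. The aligner and the peak caller were not given in the sources used here. For each peak the authors deposited a score that rises with reproducibility and is capped at 1000, a signal whose scale against depth or control is not stated, the offset of the summit, and in the ranked lists the −log10 IDR, capped at 5. The depth is unknown, so no counting error can be given. In each of the 4 ranked lists, 8 columns could not be tied to a replicate and were not used.

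Starts came from the Ensembl release 115 annotation, and 18 protein-coding genes outside the chromosome arms were left out. Each gene took its strongest summit within 500 bp of any own start. Letters came from the RefSeq release 6 genome, whose chromosome lengths fit the peak coordinates. Counts, medians and motif shares were computed with Python 3.11.15, pandas 2.3.3 and numpy 2.4.6, drawn with matplotlib 3.10.9, and the assignment and motif search were tested on simulated data. No test was made, since there is 1 group. Named are, per complex, the 5 strongest members, those without a main-list summit, those in 1 replicate's list, those over 2-fold apart between replicates, and paralogue pairs. From the other machinery genes, the 5 strongest and those without a summit are named. Further genes in the text, such as partners at shared starts and single members, were chosen after their values were seen. The members, lists and motifs were chosen with earlier results of these data known. Alternatives varied the window, the starts, the list, the signal minimum, shared starts, overlapping peaks and the motif window, and left out each replicate.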

Additional observations from a re-analysis of the deposited data

How the results depend on the processing

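The count of 39 members with a summit stayed within 1.5 times of itself in 8 alternatives, given here with the share of all genes. The count was 37 with a 250 bp window (59.7%, 32.9%) and 41 with 1000 bp (66.1%, 39.2%). It was 36 with the most upstream start alone (58.1%, 34.4%) and 45 in the conservative list (72.6%, 36.0%). With overlapping peaks merged it was 39 (62.9%, 36.0%), and with signals above the main list's median 26 (41.9%, 24.0%). Without replicate 1 it was 32 (51.6%, 30.4%). Without replicate 2 it was 31 of the 62 members, against 4307 of the 13968 genes. The count came to 14 (22.6%, 16.8%) when summits within 500 bp of another gene's start were not counted. This alternative leaves out shared summits by construction. The median signal of 234 was 149 in the conservative list and 162 to 198 when a replicate was left out. The 38 members in both the main and the conservative list had the same signal in each, and the conservative list adds 7 members with signals of 36.7 to 91.2, which lowers the median by construction. The replicates' own lists hold signals of single replicates, and over all genes their medians were 147 and 161, against 233 in the main list. The median distance of 59 bp was 63.5 to 85.0 bp when a replicate was left out. The count of 6 members with TATCGATA within 50 bp of the summit was 4 within 25 bp, 8 within 100 bp and 4 to 7 without a replicate. It was 11 in the window of the start nearest the summit, from 250 bases before to 50 after it, and also 11 with the 7 letters TATCGAT, an alternative chosen after seeing the data, both of which take in more sequence by construction. No paired analysis was possible because the series has 1 group. The depth behind the lists is unknown, and a member without a summit is not shown to lack Scr. Of these 23 members, TfIIA-S had a score above the threshold and was still in no thresholded list.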

Other observations

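TAATTA, the core of many homeodomain sites, occurred between 250 bases before and 50 bases after the first start in 21 of the 62 members (33.9%), against 20.5% of all protein-coding genes. The share was 41.0% in the 39 members with a main-list summit and 21.7% in the 23 without one, against 22.4% and 19.3% over all genes. Within 50 bp of the summits these letters were found at 2 of the 38 distinct member summits (5.26%), against 6.42% of all promoter summits. TAATTA was picked from several motifs searched in the window of the first start, and the others were mixed. In members with a main-list summit TGACAG occurred in 5.13%, against 11.4% of all genes with a summit. CAGCTG occurred in 10.3%, against 23.8%. TGATTNAT occurred in 10.3%, against 7.13%, but was no more frequent there than over all 62 members (11.3%, against 7.83% of all genes). The part of base composition in these shares was not tested.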
